A study of Saccharomyces cerevisiae with 27 samples.

Results

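LCY001, a laboratory strain of Saccharomyces cerevisiae, was compared after growth on ethanol/glycerol and on galactose, which sets a respired carbon source against a sugar that can also be fermented. The comparison rests on 6 of the 27 RNA-seq libraries of the study, chosen by their titles: 3 of LCY001 on ethanol/glycerol and 3 of LCY001 on galactose. LCY001 is BY4741 (his3Δ1 leu2Δ0 met15Δ0 ura3Δ0) with a centromeric HIS3 plasmid, and these 4 alleles are shared by every strain of the study. The other strains were used for tests of whether the difference was the same elsewhere. They are BY4741 itself, without a plasmid, and LCY002, which is BY4741 with a centromeric plasmid that holds HIS3 and 40 further genes in 1 array, whose products act in galactose breakdown, glycolysis or the ergosterol pathway, each with 3 libraries on ethanol/glycerol and 3 on galactose. LCY001 on glucose (3 libraries) is given beside some genes as a level and was not tested. Replicates were individual colonies. They were grown overnight in synthetic complete medium without histidine, diluted to an OD600 of 0.1 in the new carbon source and collected at an OD600 of about 1.0. The same preculture is given for BY4741, which has no HIS3 plasmid.

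Yeast grown on galactose induces the GAL genes: Gal3 with bound galactose relieves Gal4 of its inhibitor Gal80, and Gal4 then activates the permease and the Leloir pathway that turns galactose into a glucose phosphate for glycolysis. On ethanol and glycerol there is no sugar to break down, and cells make hexose phosphates by the glyoxylate cycle and gluconeogenesis, while the tricarboxylic acid cycle and the respiratory chain supply ATP. The kinase Snf1 and the activators Cat8, Sip4, Adr1 and the Hap complex are known to switch these genes on when glucose is gone.

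The 6 libraries held 14484847 to 15664562 expected counts each, and 3 counts, taken as the floor for a gene at 0, equal at most 0.195 CPM (counts scaled by TMM to 1000000 per library), for counting error only. Oligo(dT) selection and random hexamer priming were used, and no source used here says whether reads keep their strand. Genes that overlap another gene, lie at or near a transcript added by the submitters, share reads with a near copy or vary over 3 fold between replicates are called uncertain where they are named. Galactose replicate 2 stood apart from its group. A chi-square over genes gave 16.1 and 20.3 per degree of freedom for its pairs with replicates 1 and 3, against 5.59 for replicates 1 and 3, and 3.38 to 7.54 among ethanol/glycerol libraries. The plasmid marker HIS3 was at 1060, 1095 and 999 CPM on ethanol/glycerol and 1206, 1052 and 1254 CPM on galactose, with a difference of -0.16 whose groups overlapped, and LEU2, URA3 and MET17 were at 0 in these libraries. HIS3 averaged 46.8 ± 2.02 CPM on ethanol/glycerol and 27.9 ± 1.66 CPM on galactose in BY4741 (SD, n = 3 each). Of the a-cell genes, STE2, the alpha-factor receptor, was at 243 to 255 CPM on ethanol/glycerol and 632 to 717 CPM on galactose, while the pheromone genes MFA1 and MFA2 were at 0 in both. Why MFA1 and MFA2 had no counts was not tested, and a 0 here does not show that they were silent. The 4 alpha-cell genes together took 0.00743% of the counts on ethanol/glycerol and 0.00702% on galactose.

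The carbon source moved most of the transcriptome: 71.6% of the 5692 genes tested were called. Of these genes, 2008 (35.3% of those tested) were higher and 2068 (36.3%) lower on ethanol/glycerol than on galactose at an edgeR adjusted p below 0.05. These are the shares against which each group of genes below is read. The median log2 fold change of all genes was -0.01, with quartiles of -0.27 and 0.29, so that most called changes were small. Against a threshold of 2 fold (a log2 fold change of 1), 249 genes (4.37%) were higher and 77 (1.35%) lower, 5.73% in all, and these are called beyond 2 fold. The 3 libraries of ethanol/glycerol lay wholly above the 3 of galactose for 36% of genes and wholly below for 36.6%, so groups that do not overlap are common here. Without galactose replicate 2 the counts were 1958 higher and 2071 lower, with 252 and 78 beyond 2 fold. Per-library values are given in the order of replicates 1, 2 and 3. P-values rest on the spread between colonies within groups, estimated over all 27 libraries and not from these 6 alone. A lower level in such bulk RNA does not tell fewer cells with a transcript from less transcript per cell.

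**Figure D1:**
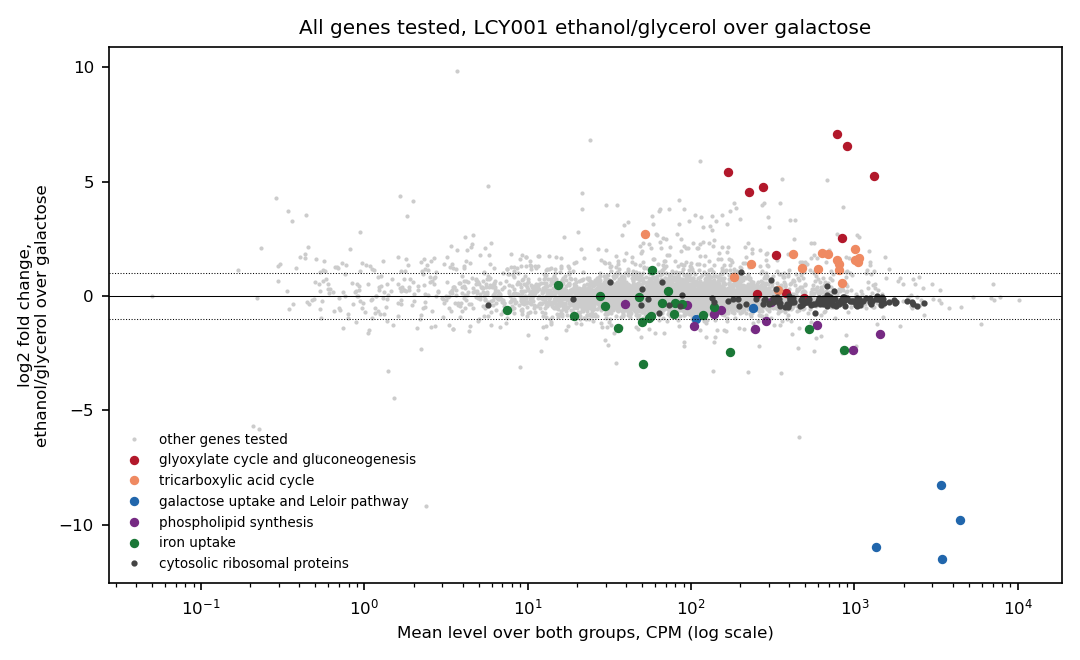
Mean level over both groups (CPM, log scale) against the log2 fold change of ethanol/glycerol over galactose in LCY001, with 1 point per gene tested and dotted lines at 2 fold. Most glyoxylate cycle and gluconeogenesis genes and the tricarboxylic acid cycle genes lie above 0, genes of galactose uptake and the Leloir pathway reach -11.49, and most cytosolic ribosomal protein genes sit just below 0.

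The genes of galactose uptake and the Leloir pathway were lower on ethanol/glycerol in 6 of 6 cases, 4 of them beyond 2 fold. Together the 6 took 0.0322% of the counts on ethanol/glycerol and 2.69% ± 0.303 on galactose (SD, n = 3). GAL1 and GAL10 are divergent neighbours on chromosome II, and Gal4 sites lie between them. That region is printed because it stands before both genes. Each site has the letters CGG and CCG with 11 bases between them, and those ends are in capitals. Both strands were searched, and the pattern reads alike on either. The stretch is chrII:278553-278636 of build R64 (plus strand, RefSeq), 468 to 385 bases before the GAL1 start codon, and the 3 sites found there lie side by side:

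GAL1-GAL10: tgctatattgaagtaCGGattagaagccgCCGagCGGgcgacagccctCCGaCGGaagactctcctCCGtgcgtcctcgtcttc

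The sites of GAL7 (chrII:275703-275719), GAL3 (chrIV:463146-463162), GAL80 (chrXIII:171422-171438) and the first of GAL2 (chrXII:289796-289812) are shown on the strand of the gene, each with 6 bases on either side, to compare their inner letters:

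GAL7: agcgctCGGacaactgttgaCCGtgatcc

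GAL3: cacgttCGGtccactgtgtgCCGaacatg

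GAL80: atttacCGGcgcactctcgcCCGaacgac

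GAL2: aggcacCGGcggtctttcgtCCGtgcgga

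Within 500 bases before the start codon, this pattern was found in 4 of the 6 pathway genes, in 3 of the 3 regulator genes and in 3 of 4 other known Gal4 targets. It was found in 179 of all 6002 nuclear protein-coding genes (2.98%). PGM1 and PGM2 are the pathway members without it. A match says only that these letters are present.

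GAL2, the galactose permease gene (chrXII:290212-291936), was at 1.64, 2.34 and 0 CPM on ethanol/glycerol and 2351, 3566 and 2152 CPM on galactose. GAL2 shares reads with hexose transporter genes. Its log2 fold change was -10.98, and leaving out an ethanol/glycerol library moved it to -11.66 (replicate 2) or -10.40 (replicate 3, the library at 0). GAL1, the galactokinase gene (chrII:279021-280607), was at 9.16, 10.1 and 10.2 CPM on ethanol/glycerol and 8358, 9543 and 8473 CPM on galactose, a log2 fold change of -9.80 (SE 0.113, edgeR adjusted p = 3.6e-29). GAL7, the uridylyltransferase gene (chrII:274427-275527), had 2.27, 2.85 and 2.04 CPM on ethanol/glycerol and 6379, 7494 and 6851 CPM on galactose, the largest fall under the naming rule at -11.49 (SE 0.143, edgeR adjusted p = 4.0e-28). GAL10, the epimerase gene (chrII:276253-278352), was at 21.4 to 22.5 CPM on ethanol/glycerol and 6148 to 7788 CPM on galactose (-8.25). For these 4 genes each galactose library lay far above each ethanol/glycerol library, and GAL1 and GAL10 overlap another annotated gene. On glucose GAL1 averaged 11.8 CPM, GAL7 6.62 CPM and GAL10 23.7 CPM, and the GAL7 glucose libraries lay above those on ethanol/glycerol.

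The last step of the pathway, phosphoglucomutase, moved much less. PGM1 was at 70.6, 74.1 and 71.2 CPM on ethanol/glycerol and 150, 136 and 141 CPM on galactose (log2 fold change -0.99, SE 0.042). PGM2, the main isozyme, was at 199, 197 and 194 CPM on ethanol/glycerol and 232, 392 and 224 CPM on galactose (-0.53). The PGM2 groups did not overlap, but its call rests on galactose replicate 2, without which the value was -0.22 with an edgeR adjusted p of 0.108. With the compared libraries alone it was -0.51 and also not called.

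The regulators split by role. GAL3, the galactose sensor (chrIV:463434-464996), was at 40.0, 43.3 and 39.2 CPM on ethanol/glycerol and 403, 408 and 400 CPM on galactose, a log2 fold change of -3.30 (SE 0.076). GAL80, the inhibitor, was at 90.7, 95.8 and 94.2 CPM on ethanol/glycerol and 417, 450 and 418 CPM on galactose (-2.19). GAL4, the activator, which overlaps another gene, was at 103, 105 and 107 CPM on ethanol/glycerol and 70.7, 83.4 and 61.5 CPM on galactose (0.55). The sensor and the inhibitor thus fell while the activator rose by a small step, with no overlap between groups for any of the 3. YDR010C, annotated on the other strand just after GAL3 (chrIV:465051-465383), fell as well, with 1.71, 2.14 and 1.72 CPM on ethanol/glycerol and 15.4, 18 and 14.4 CPM on galactose (-3.10). Without strand information its reads cannot be told from those of GAL3.

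The other known Gal4 targets were lower in 4 of 4 cases. PCL10, a cyclin of the kinase Pho85, changed by -0.87 and FUR4, the uracil permease, by -0.40. GCY1, a glycerol dehydrogenase gene with uncertain counts, was listed at 17.4, 20.2 and 0.127 CPM on ethanol/glycerol and 834, 1052 and 837 CPM on galactose. MTH1, a glucose signalling gene, was at 133, 127 and 138 CPM on ethanol/glycerol and 170, 267 and 134 CPM on galactose. Its log2 fold change was -0.52, and -0.20 without galactose replicate 2, where the call was lost (edgeR adjusted p = 0.0941), as it was with the compared libraries alone (-0.51).

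**Figure D2:**
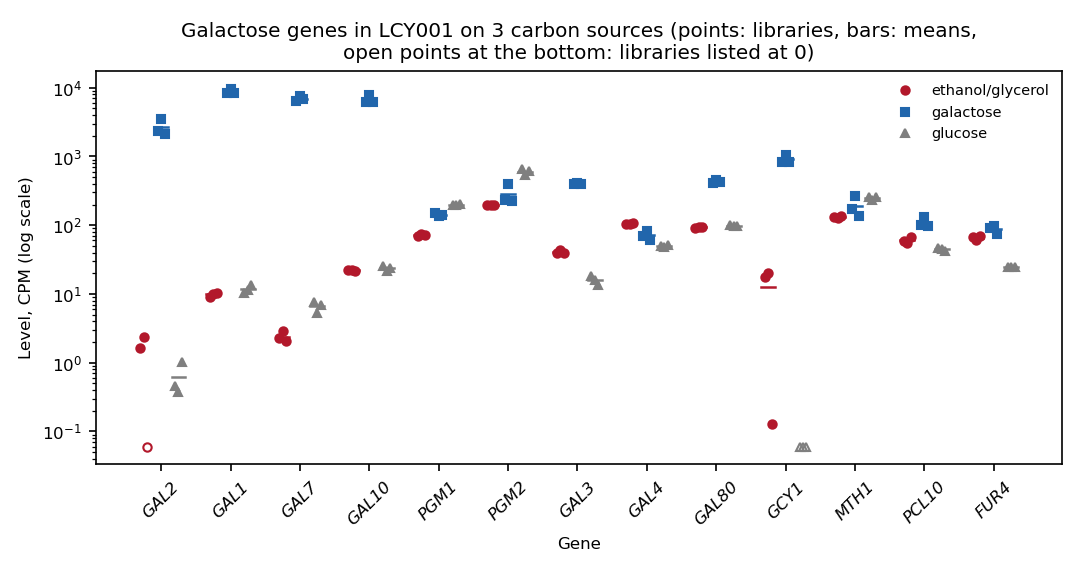
Level in CPM (log scale) of 13 galactose genes in each LCY001 library on ethanol/glycerol, galactose and glucose, with bars for the means and open points at the bottom for libraries at 0. GAL1, GAL2, GAL7 and GAL10 stand above 2000 CPM on galactose, while their ethanol/glycerol and glucose points lie below 30 CPM.

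Genes of the glyoxylate cycle and gluconeogenesis were the counterpart. Of 11 genes, 8 rose, each of them beyond 2 fold, and 0 fell, with a median log2 fold change of 4.55. They took 1.09% of the counts on ethanol/glycerol and 0.175% on galactose. MLS1, malate synthase (chrXIV:406358-408022), had 1550, 1545 and 1541 CPM on ethanol/glycerol and 11.9, 11.6 and 11 CPM on galactose, a rise of 134 fold (log2 fold change 7.07, SE 0.091, edgeR adjusted p = 1.1e-28). ICL1, isocitrate lyase (chrV:285241-286914), had 2577, 2520 and 2558 CPM on ethanol/glycerol and 66.5, 61.7 and 71.9 CPM on galactose (5.26). These 2 enzymes define the glyoxylate cycle, and neither gene's groups came near each other.

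PCK1, phosphoenolpyruvate carboxykinase, was at 1768, 1804 and 1796 CPM on ethanol/glycerol and 18.6, 19 and 20.1 CPM on galactose (log2 fold change 6.54). FBP1, fructose-1,6-bisphosphatase, was at 529, 549 and 527 CPM on ethanol/glycerol and 20.6, 19.3 and 19 CPM on galactose (4.77). Both are committed steps of gluconeogenesis. SFC1, the mitochondrial succinate-fumarate carrier, was at 333, 337 and 317 CPM on ethanol/glycerol and 7.30, 7.76 and 8.04 CPM on galactose (5.42). IDP2, cytosolic isocitrate dehydrogenase, changed by 4.55, PYC1, a pyruvate carboxylase that shares reads with PYC2, by 2.54, and CIT2, the peroxisomal citrate synthase, by 1.77. The genes MDH2, MDH3 and PYC2 were not called: MDH2, the cytosolic malate dehydrogenase, was at 366 to 420 CPM on ethanol/glycerol and 357 to 376 CPM on galactose.

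The carbon source response element, the site bound by Cat8 and Sip4, was searched on both strands of the same 500 bases. It was found in 3 of these 11 genes, in 1 of 10 ethanol oxidation genes and in 2 of 17 fatty acid oxidation genes, and in 27 of all 6002 genes (0.45%). MDH2 holds a match and was not called. The matches of ICL1 (chrV:287302-287312) and ACS1 (chrI:45437-45447), in capitals, are shown on the strand of the gene; that of ACS1 runs in the opposite direction:

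ICL1: aggtttCCATTCATCCGagcgat

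ACS1: tcatctCGGACGAACGGcgtagc

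The route from ethanol to acetyl-CoA rose in 9 of 10 genes, 6 beyond 2 fold, with a median of 1.64. The remaining gene had -4.44 but was not called, and it was not tested with the compared libraries alone. Of the 10 genes, 4 share reads with another gene. ADH2, the alcohol dehydrogenase that oxidises ethanol and shares reads with ADH1, was at 656, 682 and 648 CPM on ethanol/glycerol and 40.5, 34.9 and 44.5 CPM on galactose (4.05). ACS1, acetyl-CoA synthetase, was at 239, 240 and 224 CPM on ethanol/glycerol and 27.3, 27.7 and 28.8 CPM on galactose (3.07), and its paralog ACS2 changed by 1.04. The mitochondrial acetaldehyde dehydrogenase gene ALD4 changed by 1.66. ALD6, the cytosolic enzyme, was at 1614, 1552 and 1550 CPM on ethanol/glycerol and 901, 478 and 952 CPM on galactose (1.02). Galactose replicate 2 was the lowest library, and the groups did not overlap. ACH1, a mitochondrial CoA transferase that acts on acetate, changed by 2.59.

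Of 7 glycerol genes, 4 rose and 2 fell. For uptake and use, STL1, the glycerol-proton symporter, was at 349, 355 and 337 CPM on ethanol/glycerol and 18.4, 25.8 and 17.7 CPM on galactose (4.07). The glycerol kinase gene GUT1 changed by 1.84 and the mitochondrial glycerol-3-phosphate dehydrogenase gene GUT2 by 1.39. For synthesis, GPD2, a glycerol-3-phosphate dehydrogenase, fell (-0.90), GPD1 was not called (-0.10), and the phosphatase gene GPP2 rose (1.63) while GPP1 had -0.28, a call lost in 8 alternatives. Of 6 carriers of nonfermentable growth, 5 rose and 1 fell. JEN1, the lactate and pyruvate permease, was at 889, 978 and 938 CPM on ethanol/glycerol and 201, 181 and 187 CPM on galactose (2.30). ATO2, a putative ammonium and acetate carrier, changed by 2.31, and its relative ATO3 by -0.87.

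Activators of genes for nonfermentable carbon mostly rose. Of 13, 9 rose and 2 fell, with a median of 0.48 and 3 beyond 2 fold. SIP4 was at 138, 133 and 140 CPM on ethanol/glycerol and 9.69, 10.5 and 9.56 CPM on galactose (3.79, SE 0.090), the largest change among them. HAP4, the limiting subunit of the Hap complex, was at 731, 719 and 779 CPM on ethanol/glycerol and 239, 387 and 219 CPM on galactose (1.40). CAT8 was at 118, 119 and 132 CPM on ethanol/glycerol and 67.6, 74.4 and 60.4 CPM on galactose (0.86). GSM1 (1.14), HAP3 (0.93), RDS2 (0.48), OAF1 (0.48), PIP2 (0.18) and HAP2 (0.19) were also called higher, HAP2 not without ethanol/glycerol replicate 2 (0.15) or galactose replicate 1 (0.13). ADR1 (-0.09) and HAP5 (0.06) were not called. SNF1, the kinase (-0.30), and ERT1 (-0.49) fell. HAP4 on glucose averaged 591 CPM, above its galactose level. Beyond 2 fold the count of 3 was 1 without galactose replicate 1, 1 without replicate 3 and 1 in DESeq2.

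Glucose repressors and sensors showed 7 rises and 4 falls among 12 genes. The repressor genes MIG1 (0.70), MIG2 (0.80) and MIG3 (1.31) rose. HXK2, the hexokinase with a role in repression, fell (-0.95), with 507, 497 and 538 CPM on ethanol/glycerol and 847, 1314 and 826 CPM on galactose. Fewer falls, 2 rather than 4, were called when only the compared libraries were fitted.

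Hexose transporter genes changed little as a group. Of 16 genes, 15 were tested, 5 were higher, 3 lower and 7 not called, and HXT16 was at 0 in the 6 libraries. HXT5, a transporter of slow growth, was at 176, 178 and 176 CPM on ethanol/glycerol and 18.8, 18.7 and 17 CPM on galactose (3.28, SE 0.103), and averaged 73.0 CPM on glucose. HXT14 (1.30), HXT10 (1.23) and HXT9 (0.86), which shares reads, rose, all at levels below 15 CPM. HXT4 had 0.62, a call lost in 4 of the 6 fits that leave out a library. The glucose-induced genes HXT1 (-0.66) and HXT2 (-0.81) and the gene HXT8 (-0.60) fell. HXT1 was at 11.4 to 12.9 CPM on ethanol/glycerol and 18.8 to 20.5 CPM on galactose, against a mean of 641 CPM on glucose. HXT7, a high-affinity transporter with uncertain counts, was at 1546, 1414 and 1538 CPM on ethanol/glycerol and 1103, 1740 and 967 CPM on galactose. Its difference of 0.24 was not called, but was called without galactose replicate 2 (0.53, edgeR adjusted p = 1.2e-04). HXT6, nearly identical to HXT7, was at 301, 315 and 314 CPM on ethanol/glycerol and 198, 530 and 146 CPM on galactose (0.09, not called). HXT3, HXT11, HXT13, HXT15 and HXT17 were not called. Of the 15 genes tested, 7 share reads with a near copy, and their counts are uncertain.

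Tricarboxylic acid cycle genes rose in 17 of 17 cases, 13 beyond 2 fold, with a median of 1.51. They took 1.69% ± 0.0152 of the counts on ethanol/glycerol and 0.629% ± 0.044 on galactose (SD, n = 3 each). CIT1, the first enzyme of the cycle, was at 1583, 1657 and 1604 CPM on ethanol/glycerol and 356, 487 and 341 CPM on galactose (2.03). The succinate dehydrogenase genes SDH1 (1.83) and SDH2 (1.87) were among the largest changes, and CIT3, a second mitochondrial citrate synthase, had the largest (2.70). LSC1, a subunit of succinyl-CoA ligase, changed least (0.28), with 354 to 390 CPM on ethanol/glycerol and 301 to 317 CPM on galactose.

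In the respiratory chain 21 of 23 genes rose and 1 fell, with a median of 0.94. NDE2, an external NADH dehydrogenase, was at 101, 112 and 100 CPM on ethanol/glycerol and 10.5, 12.8 and 12.2 CPM on galactose (3.14). COX5B, the hypoxic form of cytochrome c oxidase subunit V, was the gene that fell, with 11.9, 11.4 and 13.3 CPM on ethanol/glycerol and 44.2, 48.9 and 47.7 CPM on galactose (-1.95). The aerobic form COX5A was at 614, 656 and 635 CPM on ethanol/glycerol and 288, 300 and 288 CPM on galactose (1.12). The cytochrome c gene CYC1 rose (1.09) and its hypoxic relative CYC7 was not called. ROX1, the repressor of hypoxic genes, was at 416, 387 and 486 CPM on ethanol/glycerol and 144, 150 and 141 CPM on galactose (1.57). Genes of ATP synthase rose in 16 of 17 cases by smaller steps, with a median of 0.67 and 1 beyond 2 fold, STF1 (1.54), and ATP19 was the gene not called. Mitochondrial ribosomal protein genes had a median of 0.13, with 30 of 71 higher and 0 lower. Of all genes tested, 35.3% were higher and 36.3% lower.

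Fatty acid oxidation and the carnitine shuttle gave 15 rises and 1 fall among 17 genes, with a median of 0.97. Apart from genes with uncertain counts, the 4 carnitine genes led. YAT1, a carnitine acetyltransferase, was at 338, 372 and 352 CPM on ethanol/glycerol and 22.7, 24.3 and 26.6 CPM on galactose (3.85, SE 0.070). The carrier gene CRC1 (3.71) and the transferase genes CAT2 (3.26) and YAT2 (2.33) followed. POX1, the acyl-CoA oxidase of peroxisomal beta-oxidation, changed by 1.46. The fall was DCI1 (-0.31), which was not called without ethanol/glycerol replicate 1 (-0.23) or galactose replicate 3 (-0.24). PEX11, which shares reads, had counts in the 3 ethanol/glycerol libraries and was at 0 in the 3 galactose libraries.

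Glycolysis and fermentation did not move as a block. In upper glycolysis 6 of 8 genes fell and 1 rose (median -0.22), and in lower glycolysis 4 of 9 rose and 4 fell (median 0.02). HXK1, a hexokinase, fell most, with 411, 419 and 403 CPM on ethanol/glycerol and 1085, 1930 and 1053 CPM on galactose (-1.72), and GLK1, the glucokinase, rose (0.56). Galactose replicate 2 was the highest library for both HXK1 and HXK2. TDH1, a glyceraldehyde-3-phosphate dehydrogenase that shares reads with its paralogs, rose (1.96), and CDC19, the main pyruvate kinase, fell (-0.46). PDC1, the main pyruvate decarboxylase, was at 3524, 3490 and 3645 CPM on ethanol/glycerol and 8049, 8030 and 8716 CPM on galactose (-1.22). Its minor relative PDC6 was at 56.0, 59.4 and 55.4 CPM on ethanol/glycerol and 3.86, 3.32 and 3.53 CPM on galactose (3.99). PDC5 changed by -0.90. On glucose PDC1 averaged 13847 CPM, so its order was ethanol/glycerol, galactose, glucose.

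The pentose phosphate pathway had 4 rises and 5 falls among 11 genes, and in 3 pairs the minor isozyme rose while the main one fell. GND1, the main 6-phosphogluconate dehydrogenase, was at 296, 274 and 289 CPM on ethanol/glycerol and 847, 1053 and 963 CPM on galactose (-1.74), and GND2 changed by 2.08. TKL2, the minor transketolase, was at 163, 156 and 134 CPM on ethanol/glycerol and 16.9, 16 and 17.9 CPM on galactose (3.16), against -0.31 for TKL1. NQM1, a transaldolase paralog, was at 279, 296 and 274 CPM on ethanol/glycerol and 24.9, 26.9 and 21.9 CPM on galactose (3.53), against -0.48 for TAL1. In these 3 pairs the groups did not overlap. SOL3, a 6-phosphogluconolactonase, fell (-1.07), while its relative SOL4 was not called (0.12).

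Such exchanges within a step were counted over 27 pairs of genes for the same reaction or subunit, which were chosen after their values were seen. In 13 pairs 1 gene rose and the other fell, in 5 both rose, in 3 both fell, and in 6 a member was not called. The 13 include GPP2 with GPP1, whose GPP1 call was lost in several alternatives. They also include ENO1 with ENO2 and ADH2 with ADH1, which share reads. The share of each pair's summed TPM (the deposited transcript level, which allows for gene length) shows the size of the exchange. NQM1 took 31.6% ± 0.889 of its pair with TAL1 on ethanol/glycerol and 2.80% ± 0.302 on galactose (SD, n = 3 each). The GND2 share was 24.1% on ethanol/glycerol and 2.21% on galactose, and the TKL2 share 15.1% and 1.58%. BAT2, the cytosolic branched-chain aminotransferase, took 41.5% of its pair with BAT1 on ethanol/glycerol and 11.3% on galactose. COX5A took 98.1% of its pair with COX5B on ethanol/glycerol and 85.9% on galactose, and 45.8% on glucose. HXK1 went the other way, and took 44.5% of its pair with HXK2 on ethanol/glycerol and 57.3% on galactose.

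**Figure D3:**
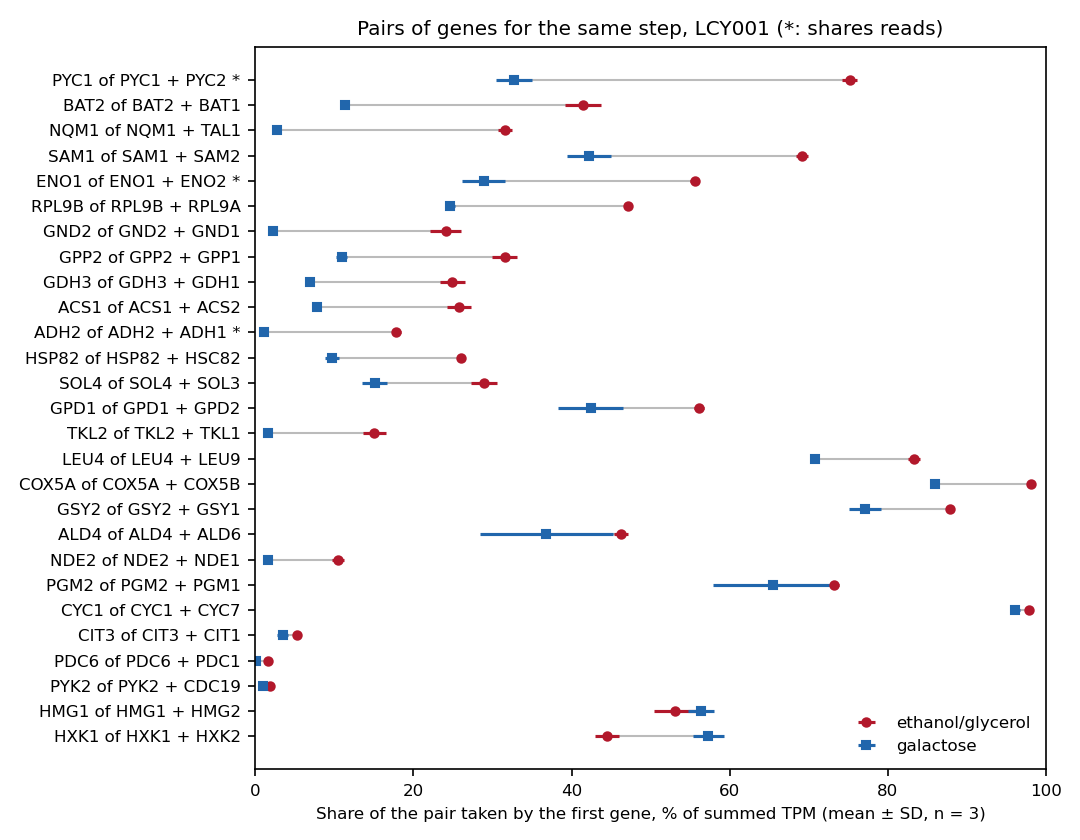
Share of a pair's summed TPM taken by its first gene, in percent, for 27 pairs in LCY001 on ethanol/glycerol and galactose (mean ± SD, n = 3), with an asterisk where the pair shares reads. The NQM1 share is 31.6% on ethanol/glycerol and 2.80% on galactose, and the shares of HXK1 and HMG1 are lower on ethanol/glycerol.

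Genes of ribosome production fell by small steps. Of 40 ribosome biogenesis genes 34 fell and 0 rose (median -0.34). RNA polymerase I subunits and factors fell in 7 of 8 cases (-0.44) and translation factors in 15 of 19 (-0.29). None of the 3 groups had a gene beyond 2 fold. DBP2, an RNA helicase, was at 570, 434 and 544 CPM on ethanol/glycerol and 847, 726 and 833 CPM on galactose (-0.64). RRN3, the initiation factor of RNA polymerase I, was at 31.3, 28.2 and 33.4 CPM on ethanol/glycerol and 53.0, 53.4 and 51.9 CPM on galactose (-0.77). Of 138 cytosolic ribosomal protein genes 134 were tested, and 98 fell and 7 rose (-0.24), with 54 of them sharing reads with a paralog. They took 9.51% ± 0.111 of the counts on ethanol/glycerol and 11.1% ± 0.336 on galactose (SD, n = 3 each). RPL9A and RPL9B, which encode the same large subunit protein, parted: RPL9A averaged 429 CPM on ethanol/glycerol and 723 CPM on galactose (-0.75), and RPL9B 383 CPM on ethanol/glycerol and 236 CPM on galactose (0.70). Proteasome genes had 3 rises and 17 falls among 32 (-0.09), and autophagy genes 17 rises and 1 fall among 23 (0.36), led by ATG8 (1.05).

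Lipid synthesis genes were lower on ethanol/glycerol, phospholipid genes most. In 11 of 11 phospholipid genes the level fell, 5 beyond 2 fold, with a median of -1.10. Their share of counts was 0.249% on ethanol/glycerol and 0.676% on galactose. INO1, inositol-3-phosphate synthase, was at 332, 309 and 326 CPM on ethanol/glycerol and 1377, 1949 and 1582 CPM on galactose (-2.34, SE 0.136, edgeR adjusted p = 2.4e-12). ITR1, the inositol transporter, was at 689, 711 and 667 CPM on ethanol/glycerol and 2183, 2245 and 2157 CPM on galactose (-1.67). PSD1 (-1.46), PIS1 (-1.32) and OPI3 (-1.28), enzymes of phosphatidylethanolamine, phosphatidylinositol and phosphatidylcholine synthesis, followed. The activator genes INO2 (-0.40) and INO4 (-0.34) and the repressor gene OPI1 (-0.60) fell less. On glucose INO1 averaged 1228 CPM and ITR1 2334 CPM, close to their galactose levels.

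The letters CATGTG, the core of the site bound by Ino2 and Ino4, were found on either strand within 500 bases before the start codon in 9 of the 11 phospholipid genes and 4 of 10 fatty acid synthesis genes, and in 789 of all 6002 genes (13.1%). The first matches of INO1 (chrX:136171-136176) and OPI3 (chrX:573142-573147) are shown with the core in capitals, on the strand of the gene:

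INO1: atgcggCATGTGaaaagt

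OPI3: agagtgCATGTGgaaagt

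Of 10 fatty acid synthesis genes 9 fell (median -0.75). FAS2, a fatty acid synthase subunit, was at 1132, 1084 and 1062 CPM on ethanol/glycerol and 2730, 2652 and 2800 CPM on galactose (-1.32), and the other subunit gene FAS1 changed by -0.90. In ergosterol synthesis 21 of 25 genes fell and 4 rose (median -0.40), with 0 beyond 2 fold. ERG6 (-1.01) and HMG1 (-0.95), which encodes HMG-CoA reductase, fell most, and ERG5 (0.60) and ERG3 (0.53), both late steps, rose most.

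Iron uptake genes fell in 16 of 22 cases, rose in 2 and had 5 falls beyond 2 fold, with a median of -0.71. They took 0.160% of the counts on ethanol/glycerol and 0.399% on galactose, against 0.0942% on glucose. FET3, the multicopper oxidase of high-affinity uptake, was at 275, 285 and 280 CPM on ethanol/glycerol and 1387, 1416 and 1516 CPM on galactose (-2.36), and its permease partner FTR1 changed by -1.46. SIT1, a siderophore carrier, was at 53.9, 49.0 and 57.2 CPM on ethanol/glycerol and 282, 244 and 347 CPM on galactose (-2.45). TIS11, whose protein binds mRNAs of iron-using enzymes, was at 11.2, 11.6 and 11.7 CPM on ethanol/glycerol and 85.9, 70.9 and 113 CPM on galactose (-2.97). The activator gene AFT1 fell (-0.48) and its paralog AFT2 rose (1.14), the larger of the 2 rises. The cell wall genes of siderophore retention did not follow the permeases: FIT1 rose (0.49), FIT3 was not called, and FIT2 had -0.36 and was not called here, though it was in 4 alternatives. The core GCACCC of the Aft1 site was found on either strand in 19 of the 22 genes, and in 457 of all 6002 (7.61%). FET3 (chrXIII:388572-388577) and FTR1 (chrV:461909-461914) are shown because their proteins work as a pair:

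FET3: aaaagtGCACCCatttgc

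FTR1: atgaatGCACCCgatttc

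Several nitrogen and amino acid groups rose. Arginine synthesis rose in 9 of 9 genes (median 1.49, 5 beyond 2 fold), lysine synthesis in 9 of 9 (0.76), amino acid permeases in 16 of 19 with 1 fall (0.73), and genes of ammonium, glutamate and glutamine in 8 of 8 (1.2). ARG1, argininosuccinate synthetase, was at 1113, 1076 and 1178 CPM on ethanol/glycerol and 279, 268 and 297 CPM on galactose (2.00, SE 0.045). PUT4, the proline permease, was at 244, 267 and 230 CPM on ethanol/glycerol and 21.3, 17.4 and 26.9 CPM on galactose (3.5). MEP2, an ammonium permease, was at 216, 197 and 216 CPM on ethanol/glycerol and 25.9, 28 and 24.0 CPM on galactose (3.01). The general permease gene GAP1 (2.09), the broad permease gene AGP1 (2.31) and the glutamate dehydrogenase genes GDH2 (2.51) and GDH3 (2.44) rose as well, and GNP1, the glutamine permease, fell (-0.28).

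ARO10, a decarboxylase that breaks down aromatic amino acids, was at 1308, 1299 and 1344 CPM on ethanol/glycerol and 39.1, 33.8 and 43.5 CPM on galactose, a rise of 33.9 fold (5.08). ARO9, the aminotransferase before it, was at 529, 503 and 549 CPM on ethanol/glycerol and 32.7, 32 and 28.8 CPM on galactose (4.08). Sulfate and methionine genes had 15 rises and 3 falls among 20 (0.48), with STR3, a cystathionine lyase, highest (2.70) and SAM2, a methionine adenosyltransferase, lowest (-1.66). Branched-chain amino acid synthesis had 5 rises and 3 falls among 11 genes (-0.01), with BAT1, the mitochondrial aminotransferase, lowest (-1.13), and histidine synthesis 2 rises and 2 falls among 6.

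**Figure D4:**
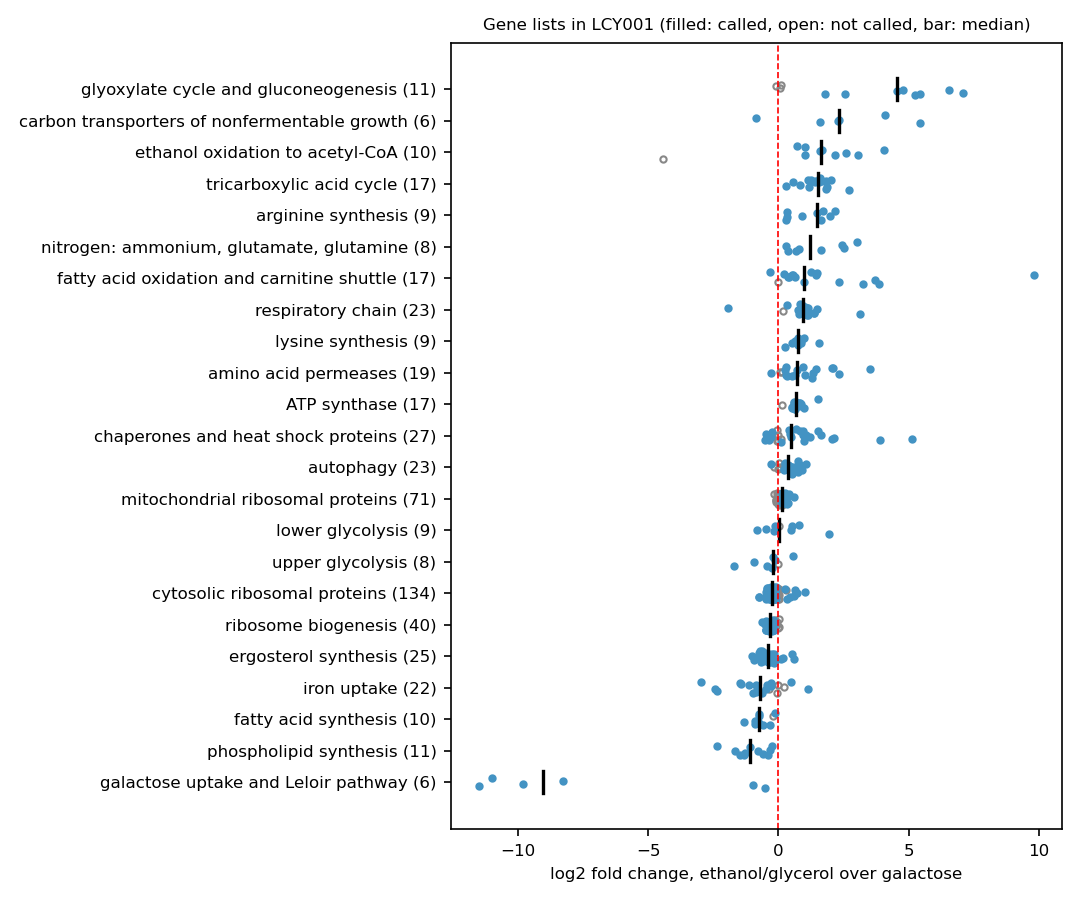
Log2 fold change of ethanol/glycerol over galactose in LCY001 for the genes of 23 lists, with the number tested in brackets, filled points for genes called at an adjusted p below 0.05, open points for genes not called, and a bar at the median. The medians run from 4.55 for the glyoxylate cycle and gluconeogenesis to -9.03 for galactose uptake and the Leloir pathway.

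Stress genes rose unevenly. Of 27 chaperone and heat shock genes 17 rose and 5 fell (median 0.47). HSP26, a small heat shock protein, was at 726, 706 and 679 CPM on ethanol/glycerol and 19.2, 21.6 and 19.5 CPM on galactose, a log2 fold change of 5.13 (SE 0.202). HSP82 rose (1.22) while its constitutive Hsp90 partner HSC82 fell (-0.49). HSP30, a membrane stress protein, was at 232, 261 and 267 CPM on ethanol/glycerol and 42.7, 92.6 and 37 CPM on galactose (2.14), but averaged 452 CPM on glucose. CTT1, the cytosolic catalase, was at 362, 375 and 346 CPM on ethanol/glycerol and 31.3, 40.8 and 32.2 CPM on galactose (3.38), and SOD2, the mitochondrial superoxide dismutase, changed by 1.70. In oxidative stress defence 14 of 22 genes rose and 4 fell (0.42), with the glutathione peroxidase genes GPX1 (1.56) and GPX2 (-1.36) on opposite sides. GRE1, a stress-induced hydrophilin, was at 155, 182 and 143 CPM on ethanol/glycerol and 9.93, 8.45 and 7.92 CPM on galactose (4.19). Glycogen genes had 9 rises and 2 falls among 12 (0.42), and trehalose genes 4 rises and 2 falls among 7. The trehalose median of 0.54 was 0.25 without ethanol/glycerol replicate 2, 0.34 without galactose replicate 1 and 0.29 without galactose replicate 3. The glycogen synthase genes parted, GSY2 up by 0.41 and GSY1 at -0.71.

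Genes of respiratory growth whose function is little known rose in 11 of 13 cases, 8 beyond 2 fold. Their median of 1.61 became 2.31 without galactose replicate 2. DPA10 was at 48.0, 45.7 and 48.4 CPM on ethanol/glycerol and 0.674, 0.313 and 0.244 CPM on galactose (6.82), a rise of 113 fold from a level near the floor. SPG4 changed by 4.52. OM45, an abundant protein of the mitochondrial outer membrane, changed by 2.72, with 1385, 1366 and 1337 CPM on ethanol/glycerol and 191, 222 and 208 CPM on galactose. ANS1, outside this list, changed by 4.80, also from near the floor, at 0.490, 0.563 and 0.122 CPM on galactose. The ANS1 value was 5.14 without galactose replicate 2 and 4.375 without galactose replicate 3. POR1, the outer membrane porin, was not called (-0.07), with 2047 to 2133 CPM on ethanol/glycerol and 2116 to 2266 CPM on galactose.

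Outside these groups, the naming rule gave the following falls. UTR2, a cell wall transglycosidase, was at 60.4, 60.0 and 68.3 CPM on ethanol/glycerol and 652, 596 and 696 CPM on galactose (-3.36, SE 0.071, edgeR adjusted p = 6.8e-24). INA1 was at 27, 25.8 and 23.8 CPM on ethanol/glycerol and 245, 238 and 251 CPM on galactose (-3.26), and RGL1 at 254, 256 and 257 CPM on ethanol/glycerol and 1385, 1458 and 1420 CPM on galactose (-2.47). RIB4, lumazine synthase of riboflavin synthesis, was at 179, 183 and 168 CPM on ethanol/glycerol and 934, 951 and 964 CPM on galactose (-2.42). Replicates of these 4 genes lay close together, and the groups were far apart. SDD1 (-2.92) and IMD2, an IMP dehydrogenase (-2.41), completed the rule's 12 falls. The a-cell receptor gene STE2 fell (-1.41), as did BAR1 (-0.77), AGA2 (-0.44) and STE6 (-0.23). Together the a-cell genes, without counts for MFA1 and MFA2, took 0.0784% of the counts on ethanol/glycerol and 0.138% on galactose.

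Other lists held smaller or mixed changes, apart from vitamin synthesis. Cell wall protein genes rose in 11 of 17 cases and fell in 3 (median 0.27), and CWP1, a mannoprotein gene, was at 519, 552 and 487 CPM on ethanol/glycerol and 154, 142 and 174 CPM on galactose (1.73). Genes of thiamine and vitamin B6 synthesis rose in 13 of 16 cases (0.80), several of them near copies that share reads, and SNO1, a vitamin B6 gene that does not, changed by 1.71. Among G1 cyclins and G1/S genes 11 of 14 rose and 2 fell (0.28), with the Pho85 cyclin gene PCL2 (1.37) highest and the G1 cyclin gene CLN3 (-0.61) lowest. The phosphate regulon had 10 rises and 3 falls among 16 genes (0.46), and the falls were 0 with the compared libraries alone. Purine synthesis genes had 3 rises and 2 falls among 12, but 1 and 6 without galactose replicate 2.

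Heme synthesis had 4 rises and 3 falls among 9 genes, led by HEM1 (0.60), the first step, and coenzyme Q synthesis 2 rises and 1 fall among 9 (-0.02), the fall being COQ2 (-0.83). Mitochondrial protein import had 2 rises and 6 falls among 16 genes (0.01). Maltose and sucrose genes rose in 1 and fell in 5 of 10 cases, among them the invertase gene SUC2 (-0.29). Alcoholic fermentation had 4 rises and 3 falls among 7 genes (0.13). Aerobic and hypoxic isoforms rose in 4 and fell in 6 of 15 cases. Meiosis and sporulation genes, with 5 rises and 3 falls among 11 (0.17), took 0.0175% of the counts on ethanol/glycerol and 0.0157% on galactose.

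Whether the plasmid-free strain and the array strain made the same change was tested by the difference between strains. Against BY4741, 487 genes (8.56%) had a log2 fold change that was higher in LCY001 and 555 (9.75%) one that was lower, 18.3% in all. Scaled by total counts, the split was 311 and 968. The median difference over all genes was -0.007, and a gene is called higher or lower here by its difference between strains. Glycogen genes differed in 9 of 12 cases, each higher in LCY001, where the median change was 0.42, against -0.56 in BY4741. Trehalose genes did so in 6 of 7 cases (0.54 in LCY001 and -0.74 in BY4741). Taken gene by gene, the median difference was 0.92 for glycogen genes and 0.44 for trehalose genes. Arginine synthesis genes were lower in 6 of 9 cases (1.49 in LCY001 and 1.78 in BY4741). Iron uptake genes were lower in 12 of 22 cases (-0.71 in LCY001 and -0.23 in BY4741), and in 9 with the compared libraries alone. BY4741 on galactose was uneven for SIT1 (151 ± 76.0 CPM) and FET3 (958 ± 360 CPM) (SD, n = 3 each). The differences of SIT1 (-0.54) and FET3 (-0.65) from BY4741 were not called, while that of TIS11 (-1.46) was. The directions of the glycogen, trehalose, iron uptake and arginine lists were the same with RLE size factors and with total counts. Cytosolic ribosomal protein genes were higher in 49 of 134 cases and lower in 1 (-0.24 in LCY001 and -0.45 in BY4741). Respiratory chain genes were higher in 9 of 23 cases and lower in 0 (0.94 in LCY001 and 0.77 in BY4741). With total counts 29 ribosomal protein genes and 3 respiratory chain genes were higher.

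Biotin synthesis genes and HSP30 stood first among the genes named for their difference from BY4741. BIO2, biotin synthase, was at 435, 390 and 348 CPM on ethanol/glycerol and 638, 652 and 667 CPM on galactose in LCY001 (log2 fold change -0.74), and averaged 46.5 CPM on ethanol/glycerol and 559 CPM on galactose in BY4741 (-3.59). The difference was 2.85 (SE 0.207, edgeR adjusted p = 1.6e-08). BIO3 (2.56) and BIO4 (2.33), the steps before it, differed alike. HSP30 rose in LCY001 and fell in BY4741 (-0.70), a difference of 2.85, and the wall protein gene SPI1 (2.01) and CTT1 (1.91) also differed upwards. ARO9 rose by 4.08 in LCY001 and 5.92 in BY4741, a difference of -1.84. For DPA10 the difference of -2.12 rests on a BY4741 galactose mean of 0.0647 CPM, below the floor, and was not called without galactose replicate 1 of LCY001 (-1.57), with the compared libraries alone (-2.12) or in DESeq2 (-2.26).

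Against LCY002, 1391 genes (24.4%) had a higher log2 fold change in LCY001 and 1090 (19.1%) a lower one, 43.6% in all, with a split of 899 and 1560 when scaled by total counts. The median difference over all genes was 0.017. Respiratory chain genes were lower in 18 of 23 cases, where the median change was 0.94 in LCY001 and 1.44 in LCY002, and ATP synthase genes in 14 of 17 (0.67 in LCY001 and 1.11 in LCY002). Cytosolic ribosomal protein genes were higher in 113 of 134 cases (-0.24 in LCY001 and -0.58 in LCY002), ribosome biogenesis genes in 31 of 40 (-0.34 in LCY001 and -0.66 in LCY002) and arginine synthesis genes in 9 of 9 (1.49 in LCY001 and 0.39 in LCY002). These 5 directions were the same under both other scalings, with 88 ribosomal protein genes and 21 biogenesis genes under total counts. Genes of galactose uptake and the Leloir pathway were lower in 5 of 6 cases, but the array carries these genes, so the plasmid's copies cannot be told apart from the genome's.

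Iron uptake genes also differed from LCY002. Of 22 genes 17 were lower in LCY001 and 1 higher, with a median of -0.71 in LCY001 and 0.14 in LCY002. TIS11 changed by -2.97 in LCY001, and averaged 32.7 CPM on ethanol/glycerol and 25.4 CPM on galactose in LCY002, a difference of -3.33 (SE 0.419, edgeR adjusted p = 3.9e-06). SIT1 fell by 2.45 on the log2 scale in LCY001 and rose by 0.71 in LCY002, a difference of -3.15. For FIT2 the difference was -3.42, with a called rise of 3.06 in LCY002. TDA6 rose by 1.40 in LCY001 and averaged 21.4 CPM on ethanol/glycerol and 104 CPM on galactose in LCY002, a difference of 3.69. HSP26 rose more in LCY001 (5.13) than in LCY002 (2.64), a difference of 2.49.

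**Figure D5:**
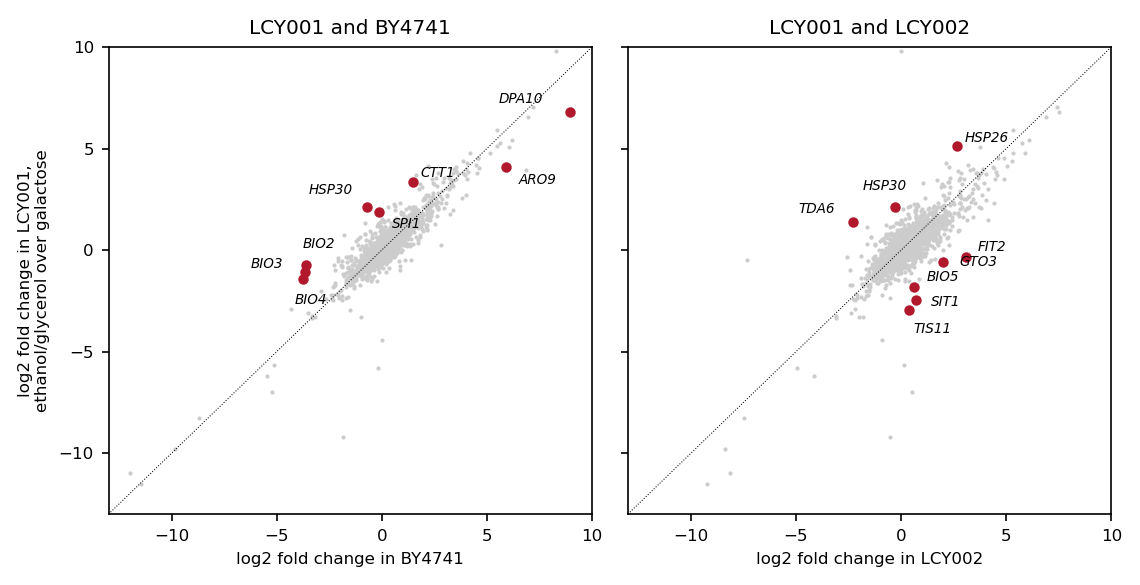
Log2 fold change of ethanol/glycerol over galactose in LCY001 against that in BY4741 and in LCY002, with 1 grey point per gene tested, the 8 genes named per comparison in red and a dotted line of equality. BIO2, BIO3 and BIO4 lie left of the line in BY4741, and TIS11, SIT1 and FIT2 lie right of it in LCY002.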

How the data were processed

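Poly(A) RNA of 27 libraries was sequenced, and the 6 of LCY001 on ethanol/glycerol and galactose were analysed with the others in 1 fit. The authors deposited an RSEM expected count and a TPM value per gene and library. HISAT2 2.1.0, RSEM 1.2.8, Bowtie2 2.2.5 and build R64 are named in the submitters' processing notes. The deposited expected counts are estimates and were rounded to whole numbers here. Deposited TPM values served only for shares between genes. Gene names, coordinates and sequences are from RefSeq R64, which matched 5980 of 5995 genes. 696 genes were treated as uncertain.

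The main test was edgeR 4.0.16 (quasi-likelihood, robust) run under R 4.3.3 after filterByExpr and TMM, fitting 1 mean for each of 9 groups, with Benjamini-Hochberg adjustment over the 5692 genes tested and a threshold of 0.05, and with glmTreat against a log2 fold change of 1. Differences between strains were interaction terms of the same fit, each between 2 changes that share no library. The biological coefficient of variation was 0.0527. Totals of 14484847 to 15664562 set the depth. The script was tested on simulated data.

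Named genes are the 12 largest rises and falls with at least 5 CPM, no overlap between groups and no mark as uncertain, the 5 largest with at least 500 CPM, members of the gene lists, and the 8 largest interactions per strain. The genes, lists and this rule were chosen with earlier results of these data known, and the pairs and motifs after values were seen. Alternatives were RLE and total-count scaling, no filter, DESeq2 1.42.0, a fit of the compared libraries alone, a replicate block and leaving out each library.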

Additional observations from a re-analysis of the deposited data

Results flagged for a closer look

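The change from galactose to ethanol/glycerol in LCY001 was tested against the same change in another strain, and the 8 largest called differences per strain are given here as values. Against BY4741 the differences on the log2 scale were 2.85 for BIO2, 2.85 for HSP30, 2.56 for BIO3, 2.33 for BIO4, 2.01 for SPI1 and 1.91 for CTT1. They were -2.12 for DPA10 and -1.84 for ARO9. In LCY001 BIO3 averaged 232 CPM on ethanol/glycerol and 491 CPM on galactose, and in BY4741 20.2 CPM on ethanol/glycerol and 252 CPM on galactose. SPI1 averaged 461 CPM on ethanol/glycerol and 124 CPM on galactose in LCY001, and 449 CPM on ethanol/glycerol and 488 CPM on galactose in BY4741. For SPI1, HSP30 and CTT1 the strains were closer on ethanol/glycerol than on galactose, and for BIO2 to BIO4 closer on galactose.

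Against LCY002 the differences were 3.69 for TDA6, 2.49 for HSP26 and 2.41 for HSP30. They were -3.42 for FIT2, -3.33 for TIS11, -3.15 for SIT1, -2.58 for GTO3 and -2.44 for BIO5. FIT2 averaged 77.2 CPM on ethanol/glycerol and 99.0 CPM on galactose in LCY001, and 482 CPM on ethanol/glycerol and 57.6 CPM on galactose in LCY002. BIO5, a biotin precursor permease, averaged 62.6 CPM on ethanol/glycerol and 219 CPM on galactose in LCY001, and 181 CPM on ethanol/glycerol and 117 CPM on galactose in LCY002. Each of these 16 differences passed an edgeR adjusted p of 0.05. In groups of 3 libraries no single library was tested as an outlier.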

How the results depend on the processing

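With RLE size factors, total counts, no low-count filter, DESeq2, a fit of the compared libraries alone, a replicate block and each library left out in turn, the counts of higher and lower genes stayed within 1.5 times. Leaving out a library gave 1907 to 1958 higher and 1952 to 2071 lower genes, 234 to 252 higher and 72 to 78 lower beyond 2 fold. For the interaction with BY4741 it gave 356 to 545 higher and 406 to 637 lower, and with LCY002 1198 to 1390 higher and 966 to 1111 lower. Against BY4741 the 487 higher genes were 311 with total counts and 310 with the compared libraries alone, and the 555 lower genes were 968 and 340. Against LCY002 the 1391 higher genes were 899 with total counts. The cause was not tested. At an unadjusted p below 0.05, 4187, 1736 and 2866 genes differed. The same genes in the same direction numbered 4037 of 4069 called with RLE, 3996 of 4016 with DESeq2 and 3811 of 3867 with the compared libraries alone. Deviations of same-numbered LCY001 libraries from their group means correlated at -0.0143, 0.0181 and -0.012. The values were 0.0975, 0.0445 and 0.0526 in BY4741, and 0.0112, 0.00208 and -0.147 in LCY002. With 3 libraries a group, such correlations cannot decide whether replicate numbers pair the samples. A fit with the replicate block called 4030 genes, 1987 higher and 2043 lower, against 4076 without it. HXT6 turned to -0.12 and -0.23 without galactose replicates 1 and 3, HXT17 to 0.0348 without galactose replicate 1 (range -0.19 to 0.0348 over the 6 libraries left out), and HXT13 to -0.0049 without ethanol/glycerol replicate 2 (range -0.0049 to 0.26). None was called where its sign turned. Other calls that changed without changing direction are those of HIS3, not called in 3 alternatives, MDH3 (0.12) called without galactose replicate 2, PYC2 (-0.13) called without ethanol/glycerol replicate 3, ACC1 (-0.18) called with the compared libraries alone, and HXT6 (0.85) called without galactose replicate 2. Counts near the floor of 3 limit genes below about 0.195 CPM.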
